A study of Mus musculus with 6 samples.

Results

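Fatty acid synthesis, elongation and desaturation is represented here by 10 genes, taken by symbol from the 55401 gene rows of the deposited count table (Acly, Acaca, Fasn, Elovl1, Elovl5, Elovl6, Scd1, Scd2, Fads1 and Fads2). Each symbol matched 1 row, and all 10 passed the low-count filter that kept 12972 genes. RNA was sequenced from RAW264.7 cells, a transformed mouse macrophage-like line of wild-type genotype. The cells received PBS, the vehicle, in 3 libraries, or molybdenum disulfide (MoS2, a layered metal sulfide) at 6.25 µg/ml in 3 libraries. The comparison asks how transcript levels of these enzymes differed between MoS2 and PBS. The sources used here do not give the length of exposure. They do not say either that replicates came from separate cultures, so each p-value reflects only the spread among these libraries, which may be technical.

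Fatty acids are built in the cytosol from acetyl-CoA, which ATP citrate lyase (Acly) makes from citrate. Acetyl-CoA carboxylase (Acaca) converts it to malonyl-CoA in the committed step, and fatty acid synthase (Fasn) joins these units into palmitate. Elongases (Elovl) of the endoplasmic reticulum lengthen the chain, and desaturases (Scd, Fads) place double bonds in it. The transcription factor SREBP-1, encoded by Srebf1, and the oxysterol-sensing LXR receptors are known activators of many of these genes, and in macrophages the pathway supplies membrane lipid and the substrates of lipid mediators.

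Total counts ran from 15767618 to 18412762 per library. Levels are given as CPM, the usual library-scaled count, after TMM scaling, which sets the bulk of genes equal between libraries. The TMM factors were 1.31 in each PBS library and 0.743 to 0.783 with MoS2, so scaling by library totals alone moves log2 fold changes of MoS2 over PBS by -0.77 (median over genes). Calls are by edgeR's quasi-likelihood F test at a Benjamini-Hochberg adjusted p under 0.05 over all genes tested. In that fit 80.7% of all tested genes were called, 38.3% higher and 42.4% lower with MoS2, so a call alone sets no gene apart. Of 10 macrophage markers 9 were tested (summed level 7380 to 7590 CPM with PBS, 4910 to 5190 CPM with MoS2), and only Mertk stayed under 1 CPM in every library. They went both ways: 2 were called higher (Cd68 and Itgam), 5 lower (Csf1r and Lyz2, which carry most of the sum with PBS, among them) and 2 were not called. Fibroblast, epithelial and lymphocyte markers summed to at most 1.02 CPM in any library. Adipocyte markers, of cells rich in these enzymes, summed to 0.13 to 0.39 CPM with PBS and 2.03 to 3.15 CPM with MoS2, with Cidec and Lep at 0 counts. Most of that rise was Retn, at 14 counts with PBS and 59 with MoS2, and Cfd, at 0 and 42, while the defining marker Adipoq had 0 and 4, Plin1 1 and 1, and Aqp7 2 and 0. The part of these markers in the results was not tested, and in bulk RNA fewer cells of a kind and less RNA per cell cannot be told apart.

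Transcripts of fatty acid synthase and acetyl-CoA carboxylase were far lower with MoS2, while the change in ATP citrate lyase was too small to be called. Fasn was 9.11-fold and Acaca 3.77-fold lower. The desaturase Scd2 was 2.80-fold lower and its paralog Scd1 was not called. The elongases Elovl6 and Elovl5 were 2.58-fold and 2.28-fold lower, and Elovl1 was 1.36-fold higher. Of the 10 genes 6 were called lower, 1 higher and 3 not, with a median log2 fold change of -0.76 against -0.08 for all genes tested. The PBS and MoS2 libraries did not overlap for 9 of them, 6 lower and 3 higher with MoS2, against 43.1% and 38.8% of all tested genes. With library totals, 10 were called lower and 0 higher. That scaling lowered most genes: of all 12972 tested, 8786 were called lower and 2334 higher, with a median log2 fold change of -0.85. Fasn, Acaca, Scd2, Elovl5 and Elovl6 were called lower under each of the 18 alternative settings tried.

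**Figure D1:**
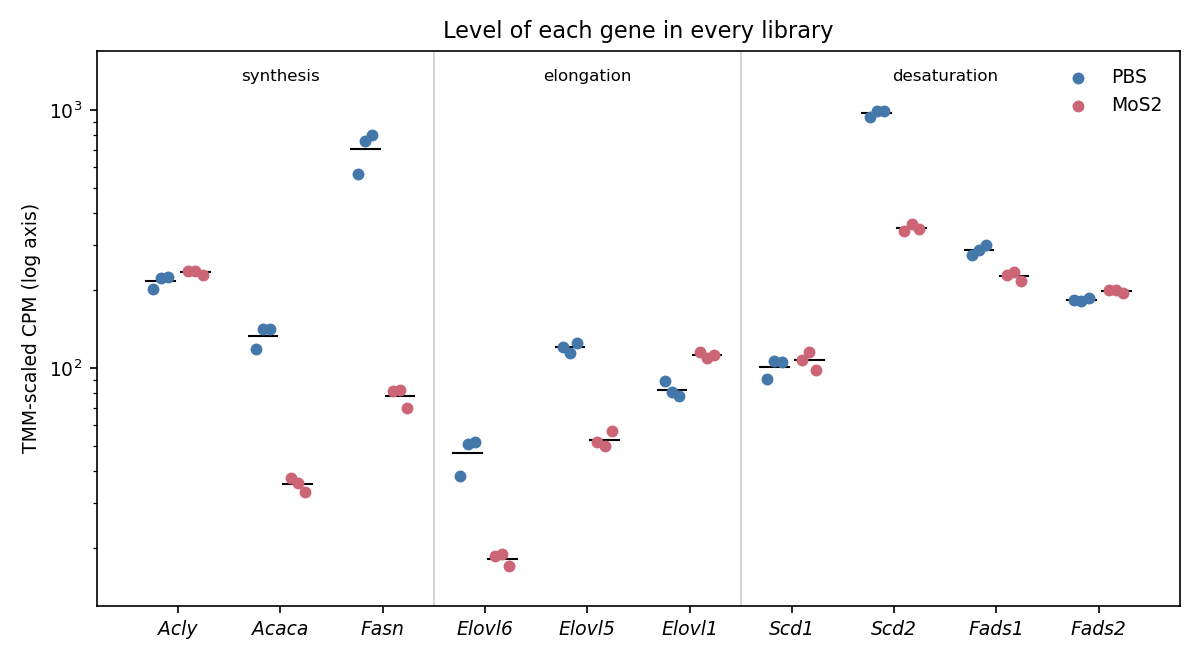
TMM-scaled CPM (log axis) of each gene in the 3 PBS (blue) and 3 MoS2 (red) libraries, with points in replicate order and the mean as a line. The groups lie far apart for Fasn, Acaca, Scd2, Elovl5 and Elovl6 and overlap for Scd1.

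Acly supplies the cytosolic acetyl-CoA from which chains start (ENSMUSG00000020917.17, GRCm38 chromosome 11, 100476353 to 100528000). It was at 203, 223 and 225 CPM in PBS replicates 1 to 3 and at 238, 237 and 230 CPM in MoS2 replicates 1 to 3. Each MoS2 library lay slightly above each PBS library, yet the log2 fold change of 0.11 ± 0.06 (SE) was not called (edgeR adjusted p = 0.11, 95% interval -0.02 to 0.25). With library totals it was called at -0.66, and with the trend of each library on gene length removed it was called at 0.38, so its direction depends on the scaling.

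Acaca makes malonyl-CoA (ENSMUSG00000020532.18, GRCm38 chromosome 11, 84129672 to 84401651). Its levels were 118, 141 and 142 CPM with PBS and 37.6, 36.0 and 33.0 CPM with MoS2. The groups did not overlap, with means of 134 ± 13.4 CPM and 35.5 ± 2.35 CPM (SD, n = 3). The log2 fold change was -1.91 ± 0.09 (edgeR adjusted p = 1.6e-10). Of the 100-base windows in its longest coding transcript, 42.8% occur unchanged in Gm5182, a gene model that had 12 counts over all libraries, so the level of Acaca is uncertain. The sources used here do not say how reads that map to several places were counted.

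Fasn carries out the repeated condensation and reduction that yield palmitate (ENSMUSG00000025153.9, GRCm38 chromosome 11, 120805846 to 120824547). It had 563, 760 and 800 CPM with PBS against 81.4, 81.9 and 69.8 CPM with MoS2. These are 48287 reads in the PBS libraries and 2984 in the MoS2 libraries, and the groups were far apart. The log2 fold change of -3.19 ± 0.12 (edgeR adjusted p = 2.8e-11) was the largest of the 10. Removing the length trend gave -2.82, and removing length and GC trends gave -2.58. Across all tested genes the fold change fell with gene length (Spearman's rho -0.231 over 12972 genes, which are not independent replicates), and Fasn and Acaca have the greatest summed exon lengths of the 10, at 10947 and 17074 bases.

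PBS replicate 1 stood apart from the other PBS libraries, over tested genes in general as well as for several of the 10. Over tested genes, chi-square per degree of freedom was 10.6 and 13.8 between it and PBS replicates 2 and 3. Between those 2 libraries it was 5.75. The Fasn level of PBS replicate 1 was 0.723 times the mean of PBS replicates 2 and 3. Its Elovl6 level was 0.743 times, its Acaca level 0.836 times, its Scd1 level 0.858 times and its Acly level 0.907 times that mean. It was the lowest PBS library for 7 of the 10 genes, the exceptions being Elovl1, Elovl5 and Fads2. The share of all tested genes for which it was lowest was not counted. Without it the log2 fold changes of Fasn, Acaca and Elovl6 were -3.33, -1.997 and -1.50.

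The promoters of Fasn and Elovl5, which fell, and of Acly and Elovl1, which did not with TMM, are shown so that their sequence can be set beside the counts. Each is the 250 bases before the RefSeq start (build GRCm38.p6), 5′ to 3′ on the gene's strand, with matches to the motifs searched in capitals.
Fasn, chr11:120824548-120824797, minus strand: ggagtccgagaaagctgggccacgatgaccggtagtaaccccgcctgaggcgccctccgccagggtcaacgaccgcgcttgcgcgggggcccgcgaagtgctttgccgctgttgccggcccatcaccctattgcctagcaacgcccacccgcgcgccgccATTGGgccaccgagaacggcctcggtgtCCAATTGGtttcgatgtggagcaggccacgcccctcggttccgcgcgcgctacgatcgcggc
Elovl5, chr9:77917115-77917364, plus strand: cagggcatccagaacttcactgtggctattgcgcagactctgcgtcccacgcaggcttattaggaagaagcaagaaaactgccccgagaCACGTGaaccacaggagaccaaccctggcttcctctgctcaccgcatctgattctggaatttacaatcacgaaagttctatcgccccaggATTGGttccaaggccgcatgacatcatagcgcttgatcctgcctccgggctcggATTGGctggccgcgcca
Acly, chr11:100528001-100528250, minus strand: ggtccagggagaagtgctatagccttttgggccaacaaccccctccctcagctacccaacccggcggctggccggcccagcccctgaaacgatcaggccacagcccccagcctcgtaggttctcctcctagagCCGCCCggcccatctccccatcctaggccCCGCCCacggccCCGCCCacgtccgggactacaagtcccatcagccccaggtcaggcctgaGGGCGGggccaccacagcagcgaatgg
Elovl1, chr4:118427843-118428092, plus strand: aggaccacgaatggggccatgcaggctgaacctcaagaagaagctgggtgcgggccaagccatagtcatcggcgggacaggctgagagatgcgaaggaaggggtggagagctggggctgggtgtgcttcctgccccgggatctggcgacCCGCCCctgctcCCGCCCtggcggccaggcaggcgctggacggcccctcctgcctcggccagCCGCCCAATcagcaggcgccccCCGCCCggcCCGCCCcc
The motifs, searched on both strands, were the CCAAT box (CCAAT), the E-box (CACGTG), the GC box (GGGCGG) and an SREBP element (TCACNCCAC). RefSeq promoters were found for 7 of the 10 genes, 8 promoters in all, since Elovl1 has 2, of which the upstream one is shown. The Fasn promoter held 3 CCAAT matches, starting at -90, -62 and -59 from the start site, of which the last 2 overlap. The Elovl5 promoter held CCAAT matches at -71 and -17 and an E-box at -161. Acly had 4 GC boxes and no CCAAT match, and Elovl1 had 5 GC boxes and 1 CCAAT match that overlaps a GC box. Of the 8 promoters, 3 held a CCAAT match, 4 a GC box and 1 an E-box. A CCAAT match was present in 33.8% of 32851 promoters of the same length, a GC box in 32.7% and an E-box in 6.02%. The SREBP element, found in 1.05% of promoters, was in none of the 8 windows, which says only that these letters are not there. The promoters of Acaca and Elovl6, which also fell, held no match to any of the 4 motifs. That of Fads2, which was not called, held 1 GC box. The windows of Acaca and of the second Elovl1 promoter lie at starts inside their genes. The Fads2 window lies almost wholly inside its gene as annotated in the deposited counts. A link between motifs and changes was not tested.

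Elovl6 extends saturated and monounsaturated chains of the length Fasn makes (ENSMUSG00000041220.10, GRCm38 chromosome 3, 129532355 to 129638495). It was at 38.2, 50.9 and 51.9 CPM with PBS and 18.7, 19.0 and 17.04 CPM with MoS2. The groups did not overlap, and the spread was wider with PBS (SD 7.64 CPM) than with MoS2 (SD 1.04 CPM). Its log2 fold change was -1.37 ± 0.12 (edgeR adjusted p = 1.1e-07).

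Elovl5 extends polyunsaturated chains (ENSMUSG00000032349.13, GRCm38 chromosome 9, 77917364 to 77984519). It fell from 121, 115 and 125 CPM to 51.6, 49.8 and 57.1 CPM, with no overlap between groups. The log2 fold change was -1.19 ± 0.07 (edgeR adjusted p = 3e-09).

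Elovl1, which makes very long saturated chains used in sphingolipids, went the other way (ENSMUSG00000006390.15, GRCm38 chromosome 4, 118428093 to 118432953). It was at 88.9, 80.6 and 78.3 CPM with PBS and at 116, 109 and 113 CPM with MoS2, and the MoS2 libraries were all higher. The log2 fold change was 0.45 ± 0.07 (edgeR adjusted p = 3.6e-05), but with library totals it was -0.33 and called lower. Of its exon bases, 1.9% overlap Cdc20 on the opposite strand, and the sources used here do not say whether strand was used in counting. The other 4 elongases were too low to be tested: Elovl2 and Elovl7 had 1 and 0 counts over all libraries, Elovl3 had 20 with PBS and 9 with MoS2, and Elovl4 had 25 and 1.

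Scd1 and Scd2 encode stearoyl-CoA desaturases, which turn saturated into monounsaturated chains, and lie in a cluster on chromosome 19. Scd2 (ENSMUSG00000025203.6, GRCm38 chromosome 19, 44293674 to 44306864) had 942, 992 and 997 CPM with PBS and 340, 363 and 346 CPM with MoS2. The MoS2 libraries were all far below the PBS libraries. The log2 fold change of Scd2 was -1.48 ± 0.06 (edgeR adjusted p = 5.3e-11).

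Scd1 (ENSMUSG00000037071.3, GRCm38 chromosome 19, 44394455 to 44407879) was at 91.1, 106 and 106 CPM with PBS and at 108, 115 and 98.7 CPM with MoS2. The groups overlapped, and the log2 fold change of 0.08 ± 0.08 was not called (edgeR adjusted p = 0.35, 95% interval -0.09 to 0.26). It was called at -0.69 with library totals and at 0.34 with the length trend removed. Of the 100-base windows of its transcript 2.66% also occur in another gene, Scd2 among them, and 0.9% of those of Scd2 do. Their neighbour Scd4, at 74 counts with PBS and 5 with MoS2, was called lower, and Scd3 had 3 counts in all; both were chosen for mention after their values were seen.

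Fads1 and Fads2 introduce the double bonds of polyunsaturated fatty acids, Fads2 at the first step and Fads1 after elongation. Fads1 (ENSMUSG00000010663.5, GRCm38 chromosome 19, 10182888 to 10196877) was at 276, 287 and 299 CPM with PBS and 231, 236 and 218 CPM with MoS2. All MoS2 libraries were lower, and the log2 fold change was -0.33 ± 0.06 (edgeR adjusted p = 2.1e-04). The call was lost with the length trend removed (log2 fold change -0.09, edgeR adjusted p = 0.17), with length and GC trends removed (-0.04, adjusted p = 0.54) and in a test against a fold of 1.2 (adjusted p = 0.065).

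Fads2 (ENSMUSG00000024665.8, GRCm38 chromosome 19, 10062765 to 10101746) was at 185, 182 and 187 CPM with PBS and 202, 200.2 and 196 CPM with MoS2. The MoS2 libraries were all slightly higher, but the log2 fold change of 0.11 ± 0.06 was not called (edgeR adjusted p = 0.088, 95% interval -0.01 to 0.24). It was called at -0.66 with library totals and at 0.21 with the length trend removed.

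**Figure D2:**
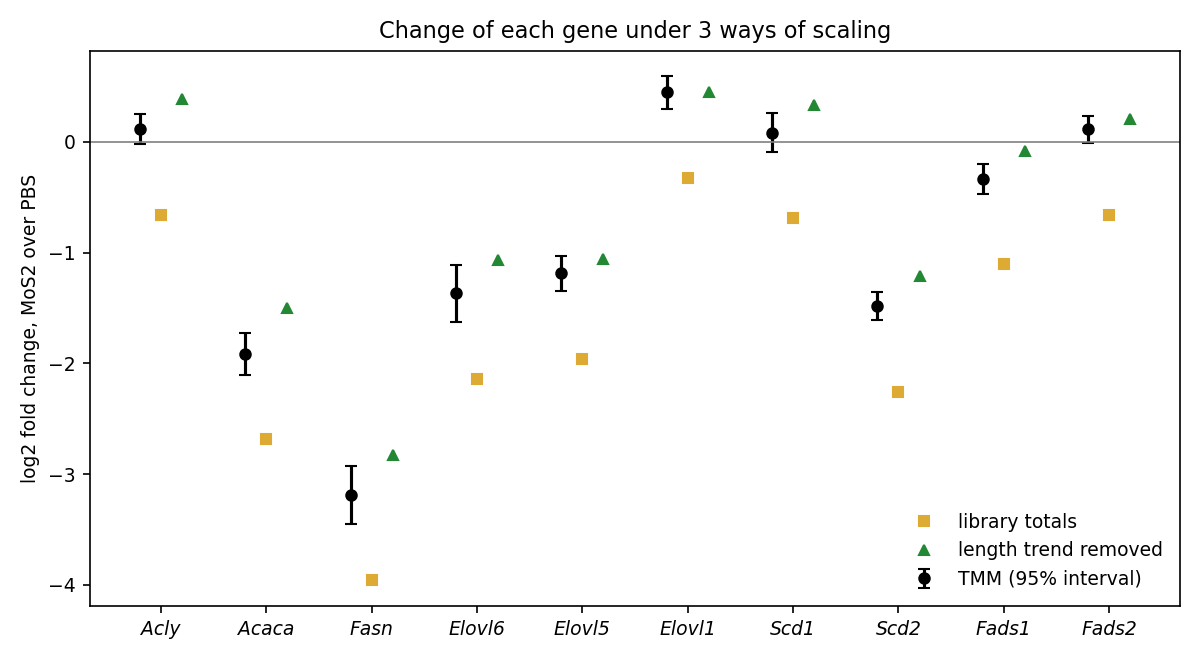
Log2 fold change (MoS2 over PBS) of each gene with TMM (black, 95% interval), with library totals (squares) and with the length trend removed (triangles). Fasn, Acaca, Elovl6, Elovl5 and Scd2 lie below 0 in all 3, whereas Acly, Elovl1, Scd1 and Fads2 lie above 0 except with library totals.

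Levels between genes were compared per kilobase of the summed exon length in the deposited table, which counts exons of every isoform and so lowers genes with many. With PBS, Scd2 was highest (179 ± 5.54 CPM per kb, SD, n = 3), followed by Fasn (64.6 ± 11.6), Fads1 (59.7 ± 2.48), Fads2 (55.9 ± 0.794) and Acly (41.2 ± 2.29). Then came Elovl5, Elovl1, Scd1, Acaca and Elovl6, the last at 7.31 ± 1.19 CPM per kb. The range of Fasn over libraries overlapped those of Fads1 and Fads2, and in PBS replicate 1 Fasn was below both, so its place among them is not resolved. The ranges also overlapped for Elovl5 and Elovl1 and for Acaca and Elovl6, although the first of each pair was higher within each of the 3 libraries. With MoS2 the order by this length was Scd2 (64.0 ± 2.14 CPM per kb), Fads2 (60.4 ± 0.95), Fads1 (47.4 ± 1.87), Acly (44.6 ± 0.793) and Elovl1 (41.3 ± 1.16), then Scd1, Elovl5, Fasn, Elovl6 and Acaca. Several of these places turn with the length used. Per kb of the longest protein-coding transcript (a length added after seeing the data), Scd2, Fads1, Fads2 and Elovl1 had means of 64.1, 65.9, 63.2 and 62.1 with MoS2 and overlapped, and Acaca lay above Elovl6 in each MoS2 library. By either length Fasn had rank 2 to 4 in the PBS libraries and rank 8 in each MoS2 library, where its mean was 7.10 ± 0.627 CPM per kb of exon length.

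The make-up of the 10 genes does not depend on library scaling, though each share depends on the length used. Scd2 took 35.7% ± 0.628 of their summed counts per kb with PBS and 20.9% ± 0.59 with MoS2, and Fasn 12.9% ± 1.75 and 2.31% ± 0.166 (SD, n = 3). Fads2 went from 11.2% ± 0.542 to 19.7% ± 0.179, Acly from 8.22% ± 0.0944 to 14.5% ± 0.107 and Elovl1 from 6.07% ± 0.71 to 13.5% ± 0.517. Of all counts in a library, the 10 genes took 0.342% to 0.394% with PBS and 0.102% to 0.113% with MoS2. This last share, unlike the make-up, depends on scaling, since it uses library totals, which lowered most genes with MoS2. After TMM scaling the 10 genes summed to 2626 to 3012 CPM with PBS and 1379 to 1447 CPM with MoS2.

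**Figure D3:**
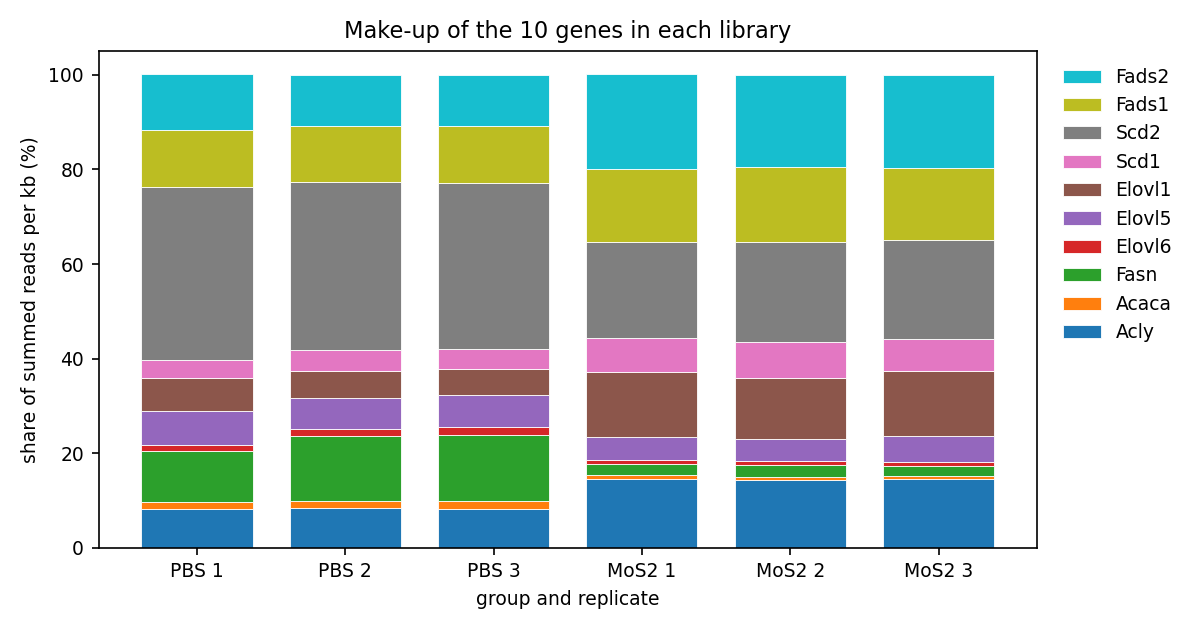
Share of each gene (percent) in the summed counts per kb of the 10 genes, for each library. Scd2 and Fasn shrink from 35.7% and 12.9% on average with PBS to 20.9% and 2.31% with MoS2, and Fads2, Acly and Elovl1 widen.

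Ratios between enzymes with related roles were taken within each library, where scaling cancels. For 4 ratios the groups were compared by an exact permutation test (two-sided), which with 3 libraries a group has a smallest p of 0.1. The Fasn to Acly ratio per kb was 1.34, 1.64 and 1.71 with PBS and 0.165, 0.167 and 0.146 with MoS2. It was 9.78-fold lower with MoS2, with no overlap (exact p = 0.1, adjusted p = 0.133). The Scd2 to Scd1 ratio was 9.26, 8.35 and 8.41 with PBS and 2.83, 2.81 and 3.14 with MoS2. That is 2.96-fold lower, again with no overlap (exact p = 0.1, adjusted p = 0.133). The Fads1 to Fads2 ratio was 1.02, 1.08 and 1.1 with PBS and 0.783, 0.806 and 0.764 with MoS2, with no overlap (exact p = 0.1, adjusted p = 0.133). Which of the pair is higher with MoS2 depends on the length used, since per kb of transcript the ratio was 1.36 to 1.46 with PBS and 1.02 to 1.07 with MoS2. The Elovl6 to Elovl5 ratio overlapped between groups, at 0.173 to 0.243 with PBS and 0.163 to 0.209 with MoS2 (exact p = 0.4).

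**Figure D4:**
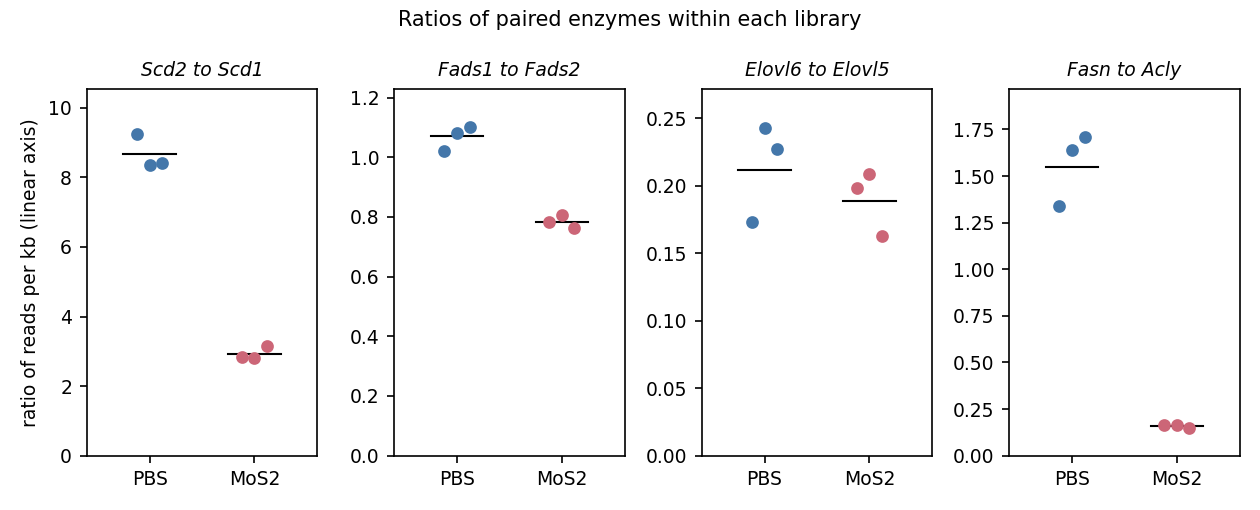
Ratio of counts per kb (linear axes from 0) of 4 enzyme pairs in each library, with the geometric mean as a line. The groups are separate for Scd2 to Scd1, Fads1 to Fads2 and Fasn to Acly, and overlap for Elovl6 to Elovl5.

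Among 13 tested genes of transcriptional control, 9 were called lower and 2 higher, against 42.4% and 38.3% of all tested genes. The split was 11 and 2 with library totals but 5 and 5 with length and GC trends removed. Over all 12972 tested genes, library totals called 8786 lower and 2334 higher. Removal of length and GC trends called 4974 lower and 5444 higher. Srebf1, which encodes SREBP-1, was at 210 ± 9.10 CPM with PBS and 74.8 ± 4.12 CPM with MoS2 (SD, n = 3). Its log2 fold change was -1.49 ± 0.07 (edgeR adjusted p = 1.5e-10), and it was called lower in all 18 alternatives. Srebf2, whose product mainly drives cholesterol synthesis, was not called (-0.13, edgeR adjusted p = 0.071) and had 0.18 with the length trend removed and -0.90 with library totals, both called. The SREBP escort gene Scap had -0.33, or 0.28 with length and GC trends removed. Insig1, which holds the escort in the endoplasmic reticulum and is itself an SREBP target, rose from 106 ± 2.76 to 218 ± 7.83 CPM, in all 18 alternatives as well. The LXR gene Nr1h3 was low and fell from 3.76 ± 0.463 to 1.03 ± 0.30 CPM, and Nr1h2, the other LXR gene, had a log2 fold change of -0.43, which became 0.04 and lost its call with length and GC trends removed.

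Other genes of carbon supply and of carboxylase control were compared as lists. Their counts stand beside 38.3% of all tested genes called higher and 42.4% lower, and no list was tested as a set. In carbon supply 3 of 10 were called higher and 7 lower, or 0 and 7 with library totals and 4 and 6 with length and GC trends removed. Me1, the malic enzyme that makes NADPH, rose from 39.0 ± 1.72 to 72.1 ± 4.2 CPM with TMM but had 0.11 and no call with library totals. Aacs, which activates acetoacetate for lipid synthesis, fell from 55.5 ± 1.54 to 17.6 ± 1.07 CPM. In carboxylase control 0 of 7 were called higher and 3 lower, or 0 and 7 with library totals and 2 and 3 with length and GC trends removed. They included Mid1ip1, whose product promotes polymers of the carboxylase (log2 fold change -0.46), and Prkag2, a regulatory subunit of the inhibitory kinase AMPK (-1.24).

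The remaining steps of elongation and desaturation moved in both directions, as did all tested genes, of which 38.3% were called higher and 42.4% lower. Of 6 tested partners of the elongation cycle, 3 were called higher and 3 lower, or 1 and 4 with library totals. Tecr, the reductase of the last step, had a log2 fold change of 0.69, or -0.08 and no call with library totals, and the dehydratase family gene Hacd4 fell from 20.2 ± 0.958 to 5.77 ± 0.722 CPM. Among other desaturases and electron donors 4 of 9 were called higher and 3 lower, or 2 and 6 with library totals and 5 and 2 with length and GC trends removed. Cyb5r4, a reductase of the cytochrome b5 family, rose by 1.58 and its relative Cyb5r1 fell to -0.48 on the log2 scale.

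For each list that follows, the share of all tested genes was 38.3% called higher and 42.4% lower. Mitochondrial fatty acid synthesis, a separate pathway that makes the lipoate precursor, had 3 of 9 tested genes called higher and 6 lower, or 2 and 6 with library totals. Its condensing enzyme gene Oxsm fell from 17.6 ± 0.539 to 1.70 ± 0.379 CPM, while Mecr, the reductase of the same cycle, rose from 26.8 ± 2.65 to 64.4 ± 5.00 CPM. The list of fatty acid activation also holds acyl-CoA thioesterases, which undo activation. It had 6 of 9 higher and 1 lower, or 2 and 4 with library totals. The genes called higher were the thioesterases Acot1, Acot7 (log2 fold change 1.94) and Acot9 and the acyl-CoA synthetases Acsl3, Acsl4 and Acsbg1. The 1 called lower was the thioesterase Acot2 (-2.60). Fatty acid oxidation had 4 of 12 higher and 4 lower, or 1 and 10 with library totals and 6 and 4 with length and GC trends removed. Cpt1a, the malonyl-CoA-sensitive gate of mitochondrial oxidation, fell from 94.7 ± 8.79 to 14.3 ± 2.79 CPM, and the dehydrogenase gene Acadl rose from 124 ± 8.27 to 266 ± 11.9 CPM. Triglyceride and phospholipid assembly had 3 of 15 higher and 8 lower, or 1 and 14 with library totals and 5 and 7 with length and GC trends removed. The lysophospholipid acyltransferase Lpcat1 fell from 163 ± 4.12 to 30.6 ± 2.75 CPM, and the phosphatidate phosphatase Lpin1 had 0.50, or -0.27 with library totals. Over the 9 lists, 28 of 90 tested genes were called higher and 44 lower, or 11 and 69 with library totals. That scaling called 2334 of all 12972 tested genes higher and 8786 lower. With the length trend removed the split was 37 and 39, and with length and GC trends removed 40 and 37. Over all tested genes the split moved as well, to 5347 higher and 5014 lower, and to 5444 and 4974. With TMM the median log2 fold change of the 90 genes was -0.18 against -0.08 for all genes tested.

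**Figure D5:**
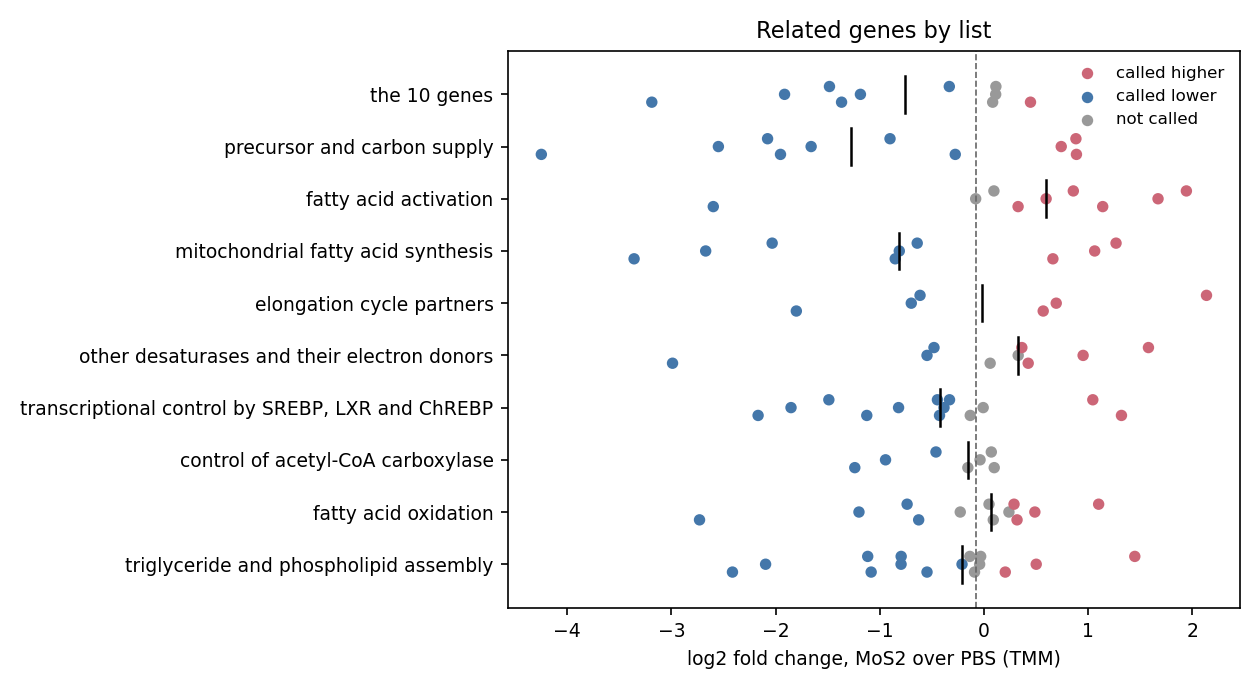
Log2 fold change (MoS2 over PBS, TMM) of every tested gene in each list, coloured by call, with the list's median as a black bar and the median of all tested genes as a dashed line. The 10 genes run from -3.19 to 0.45, and the lists other than carboxylase control each hold genes called in both directions.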

How the data were processed

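Per the submitters' processing notes, reads were handled with fastp 0.20.0, HISAT2 2.1.0 and featureCounts 1.6.1. The deposited table holds the authors' raw read counts for each gene as whole numbers. The notes name GRCh38, but the identifiers are mouse, and 54349 of 55401 have the same span in GENCODE M21 (GRCm38). Columns were matched to samples by letter and replicate number.

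Counts were tested with edgeR 4.0.16 (limma 3.58.1, R 4.3.3): quasi-likelihood F test, group as the only term, TMM factors, default low-count filter (about 10 counts in 3 libraries). Log2 fold changes use a prior count of 0.125, and the SE is the change over the square root of F. Levels per kb use the length column that the authors deposited.

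The members and lists were chosen with earlier results of these data known. Of 105 entries in the related lists, 104 matched a row. Named were the 10 genes, 7 regulators of the pathway, and in each list the called gene with the smallest p in each direction. In the fatty acid activation list every called gene was named, and Hacd1, Hacd2 and Hacd3 were added beside Hacd4 after their values were seen. The fit was tested on simulated data of 12677 genes, of which 100 changed by 1 and 100 by 2 on the log2 scale. It called 85% and 97% of these, and 6.2% of its calls were false. With so few changed genes, the simulation cannot speak for data in which 80.7% of genes were called. Alternatives were other scalings, filters and thresholds, DESeq2 1.42.0, limma-voom, a replicate term, removed length trends and leaving out each library. No pair of libraries within a group agreed within sampling noise.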

Additional observations from a re-analysis of the deposited data

How the results depend on the processing

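Direction and call of Fasn, Acaca, Scd2, Elovl5 and Elovl6 held in all 18 alternatives, with log2 fold changes of -3.96 to -2.58, -2.69 to -1.50, -2.26 to -1.21, -1.96 to -1.06 and -2.14 to -1.07. With library totals 0 members were called higher and 10 lower, and over all genes 2334 higher and 8786 lower against 4964 and 5502. That scaling turned Elovl1 (-0.33), Acly (-0.66), Scd1 (-0.69), Fads2 (-0.66), Tecr (-0.08) and Lpin1 (-0.27). Upper-quartile factors gave -0.015 for Acly, -0.046 for Scd1 and -0.018 for Fads2, none called. RLE factors and DESeq2 called 3 members higher, and removal of the length trend, or of length and GC trends (added after seeing the data), called 4. Over all genes these settings called 5141, 5018, 5347 and 5444 higher, against 4964 in the main fit. The length removal gave 0.18 for Srebf2. The length and GC removal gave 0.42 for Srebf2, 0.28 for Scap and 0.039 for Nr1h2. The cause was not tested. Leaving out each library changed no call among the 10 genes.

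The labels do not say that a shared replicate number marks a culture or day, so the numbers were not taken as pairs. Deviations of same-numbered libraries correlated across genes at r of -0.02, -0.01 and -0.14 for replicates 1, 2 and 3. Those of differently numbered libraries ran from -0.119 to 0.151. Centring within each group ties these values together, so they cannot decide on pairing. With a replicate block 7 members were called, 1 higher and 6 lower, as without it, and 10203 genes in all against 10466. The within-library ratios had the same direction in all 8 of their alternatives. Removal of length trends, which a ratio within a library does not cancel, was not among them. The differences in the ratios were -3.29 (Fasn to Acly), -1.57 (Scd2 to Scd1), -0.45 (Fads1 to Fads2) and -0.17 (Elovl6 to Elovl5) on the log2 scale. A replicate block cannot change these, since each number occurs once in each group. At these depths the lowest member, Elovl6, still had at least 233 counts in each library, while Elovl2, Elovl3, Elovl4 and Elovl7 were too low for a statement.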
